A study of Mus musculus with 6 samples.

Results

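The miRNAs of skeletal muscle, mmu-miR-1, mmu-miR-133a, mmu-miR-133b and mmu-miR-206 (written without the species prefix from here on), were followed across 6 miRNA arrays of whole dorsal skin. They were taken by name as the unstarred mature strands of the cluster of miR-1 with miR-133a and that of miR-206 with miR-133b, and each was read from 5 spots per array, 20 of the 3535 miRNA spots. They make up 4 of the 707 mouse miRNA probes and 4 of the 157 that passed the detection minimum. The mice were C3H/HeJ throughout, an inbred strain prone to spontaneous alopecia areata (AA), an autoimmune attack on the hair follicle. In the AA group (3 arrays) the skin had hair loss, and in the unaffected group (3 arrays) it was normal haired skin from control animals. No treatment, age or sex is given in the labels used here. The design note says that several samples were taken from each mouse without tying them to arrays, so arrays may share an animal, and every p-value here reflects array-to-array spread that may be technical. Values of a group are listed in the order of its replicates 1, 2 and 3.

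Mouse dorsal skin lies on a thin sheet of striated muscle, the panniculus carnosus, so RNA of whole skin includes RNA of muscle fibres. miR-1 and miR-133a are cut from shared primary transcripts, and so are miR-206 and miR-133b; myogenic transcription factors such as MyoD and myogenin drive these genes. In cultured mouse myoblasts miR-1 and miR-206 favour differentiation, repressing targets such as Hdac4 and Pax7, while miR-133 was described as favouring proliferation through Srf. miR-1 and miR-133a are also abundant in heart, whereas miR-206 is nearly restricted to skeletal muscle and is prominent in slow and regenerating fibres. In whole tissue, fewer muscle fibres and less of a miRNA per fibre cannot be told apart.

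The mature sequences of the chromosome 1 cluster are shown because their seeds (bases 2 to 8, in capitals), which direct pairing with target mRNAs, split the 4 miRNAs into 2 families.
miR-206: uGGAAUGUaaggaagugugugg
miR-133b: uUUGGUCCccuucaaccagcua
Both are RefSeq sequences on GRCm38.p6, equal to the target sequences of the probes, and 2 of the 4 members were matched; miR-1 and miR-133a were not matched. miR-206 lies at chr1:20679055-20679076 and miR-133b at chr1:20682834-20682855, both on the plus strand. Their hairpins stand 3686 bases apart, and both lie within the span of the long noncoding RNA gene Lincmd1 (chr1:20669882-20682958). Of all 707 probes, the seed of miR-206 occurs in 2, miR-206 and miR-1, and that of miR-133b in 2, miR-133b and miR-133a. The targets of miR-133a and miR-133b differ by 1 edit, and such near-identical probes can cross-hybridise and do not count as separate evidence. The targets of miR-1 and miR-206 differ by 4 edits. No other probe came closer than 8 edits to any of the 4.

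The arrays differed in brightness. The median empty spot read 168 to 274 on unaffected arrays and 209 to 530 on AA arrays, and 97 to 202 and 115 to 157 probes were detected, respectively (mean raw intensity above the 95th percentile of the array's empty spots). Over the 88 probes detected everywhere, the median signal relative to empty spots was 4.20, 16.9 and 11.4 on the unaffected arrays and 3.33, 3.24 and 1.46 on the AA arrays. Unaffected replicate 1 thus stood nearer to the AA arrays in signal than to the other unaffected arrays, and each result is given with and without it where that matters.

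All 120 member spots exceeded the 95th percentile of the empty spots of their array, and every member was detected on all 6 arrays. The margin was small for miR-206. Its lowest spot read 344.5 on unaffected replicate 1, against a percentile of 343.6, and 601.4 on AA replicate 2, against 599.1. The spread among the 5 spots of a probe, as coefficient of variation, had a median of 7.95% and ran from 2.40% to 19.3%. The highest of these belonged to miR-1 on unaffected replicate 1, where 1 spot read 599 and the other 4 between 787 and 1000. In that low spot the standard deviation among pixels was 37.6% of the mean, against 0.440% to 1.67% for the miR-1 spots of unaffected replicates 2 and 3. No member spot was above 30269, on arrays whose brightest spot reached 45173 to 59999.

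miR-1 showed the widest range of raw signal. Its mean raw intensity was 851, 28753 and 19344 on the unaffected arrays and 454, 1481 and 1778 on the AA arrays. Unaffected replicates 2 and 3 were far above the other 4 arrays, and unaffected replicate 1 lay within the range of AA. Within the unaffected group the brightest array exceeded the dimmest 33.8-fold, and within AA 3.92-fold. Against empty spots, miR-1 stood 172 and 102 times higher on unaffected replicates 2 and 3 and 2.17 to 3.35 times on the other 4 arrays.

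miR-133a read 2833, 23685 and 11544 on the unaffected arrays and 2050, 3346 and 1692 on the AA arrays. miR-133b read 2606, 23350 and 10873 on the unaffected arrays and 1820, 3161 and 1417 on the AA arrays. For both, unaffected replicate 2 was highest and replicate 3 next, with unaffected replicate 1 inside the AA range; the unaffected spread was 8.36-fold for miR-133a and 8.96-fold for miR-133b. miR-206 read 377, 2739 and 1908 on the unaffected arrays and 525, 655 and 879 on the AA arrays. Here unaffected replicate 1 was the lowest of all 6 arrays. On unaffected replicate 1 and AA replicate 2 the miR-206 signal was 1.38 and 1.33 times the empty-spot level, so its value there is the least certain. On AA replicate 3 it was 1.66 times that level.

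**Figure D1:**
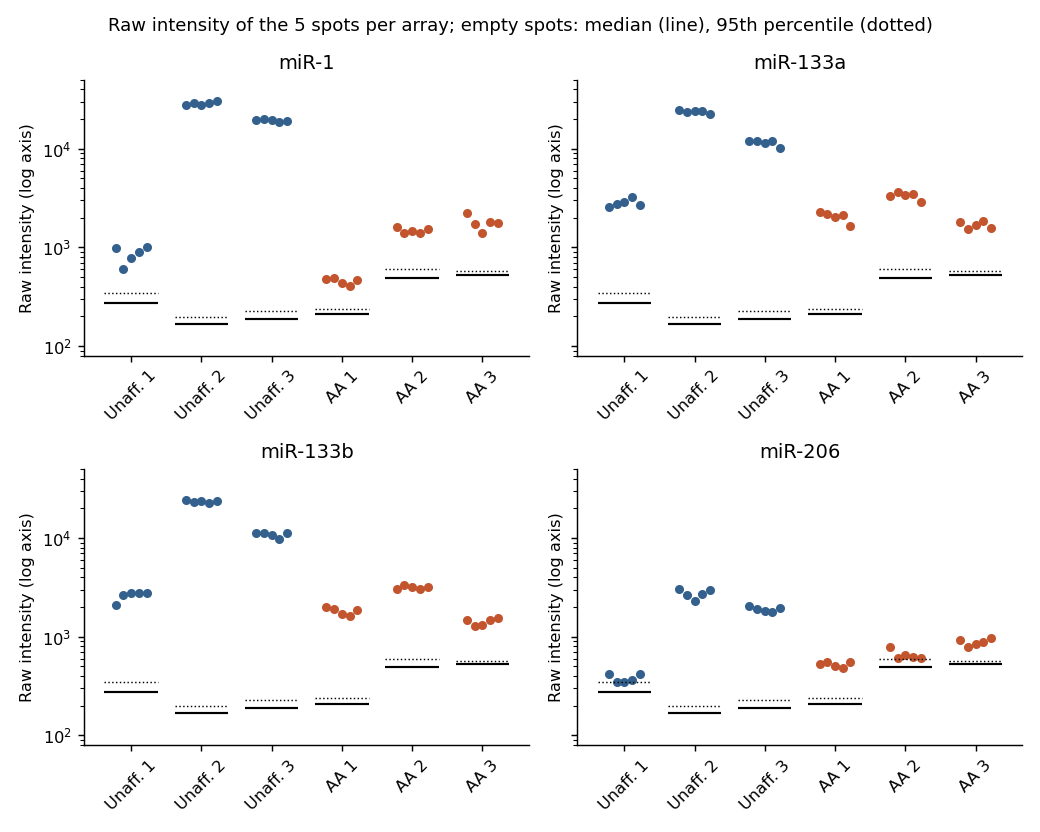
Raw intensity (log axis) of each of the 5 spots of the 4 muscle miRNAs on the 6 arrays, with unaffected arrays in blue and AA arrays in orange. Black lines mark the median and dotted lines the 95th percentile of the empty spots of that array. All 4 miRNAs are brightest on unaffected replicates 2 and 3, and the 5 spots of a probe lie close together beside the differences between arrays.

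The question the design poses is whether miRNA levels differ between AA and unaffected skin. For it, intensities were corrected for background, taken to log2 and quantile-normalized, which gives every array the same distribution, and differences were tested by limma over all 157 detected miRNAs. By limma 0 miRNAs passed an adjusted p of 0.05 in either direction (0% higher and 0% lower), and 0 of the 4 muscle miRNAs did. At an unadjusted p under 0.05, 8 miRNAs were lower in AA (5.1%) and 4 higher (2.55%; miR-146a, miR-296-5p, miR-1937a and miR-1937b, named after their values were seen), and 0 of the 4 muscle miRNAs was among them. All 4 had lower means in AA, as did 84 of the 157 tested (53.5%). Without unaffected replicate 1 all 4 were lower, as were 49.0% of those tested. The count fell to 3 without unaffected replicate 2, unaffected replicate 3 or AA replicate 2, and with the trend on GC content removed. The exception each time was miR-206, and 51.6% to 56.7% of those tested were lower in these settings. The median log2 difference of the 4 was -0.83, against -0.039 over all tested miRNAs. That median lies between the values of miR-133a and miR-133b, whose near-identical probes do not count as separate evidence.

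Normalized miR-1 was 9.74 in unaffected replicate 1 and 13.78 in both of the others, and 9.25, 9.94 and 12.09 on the AA arrays. The miR-1 probe was the brightest miRNA probe on unaffected replicates 2 and 3, so quantile normalization set both to the top of the common distribution; this is a property of the scaling and does not rank miR-1 among miRNAs. The groups overlapped through unaffected replicate 1. The means were 10.43 ± 1.48 for AA against 12.43 ± 2.33 for unaffected skin (SD, n = 3 each), 4.02-fold lower in AA (log2 difference -2.01, SE 1.05, 95% interval -4.33 to 0.32, limma adjusted p = 0.588). It was the most negative difference of the 157, and the exact permutation test gave p = 0.3 (two-sided; 3 arrays against 3 cannot go below 0.1). Without unaffected replicate 1 the difference was -3.31 (SE 0.56) or 9.90-fold, and it passed (limma adjusted p = 7.49e-05).

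That call rested on which array was left out, and on a tie. Unaffected replicates 2 and 3 both held the top normalized value, so their SD in that fit was 0. Before normalization they stood at 14.81 and 14.23. The tie thus came from the scaling, and the SE and p-value of that fit rest partly on it. Without unaffected replicate 2 the miR-1 difference was -1.37, and without unaffected replicate 3 it was -1.39, neither of which passed (limma adjusted p = 0.607 and 0.949). Signal by base composition also differed between the groups. The slope of normalized log2 intensity on target GC content was 0.0068 to 0.17 per 10 percentage points on AA arrays and -0.36 to -0.077 on unaffected arrays, and the miR-1 target has a GC content of 27.3%, against 45.5% to 54.5% for the other 3. With each array's GC trend removed, the miR-1 difference was -1.30 (SE 1.04, limma adjusted p = 0.803).

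The miR-133 pair differed less and varied less. miR-133b, the Mir206 cluster member of this family, was 11.60, 13.25 and 12.17 on the unaffected arrays and 11.43, 11.43 and 11.47 on the AA arrays. All AA arrays lay below all unaffected arrays, although AA replicate 3 and unaffected replicate 1 were only 0.13 apart. AA was lower without overlap for 11 of the 157 tested miRNAs (7.01%) and higher without overlap for 7 (4.46%). Of the 4 members, the first held for miR-133b alone and the other for 0. Its means were 11.44 ± 0.022 and 12.34 ± 0.84 (SD, n = 3 each), 1.87-fold lower in AA (log2 difference -0.90, SE 0.46, 95% interval -1.91 to 0.11, limma adjusted p = 0.588; exact permutation p = 0.1, the smallest possible). The separation was also present under 6 of 8 other ways of correcting, scaling or summarising the same arrays; it was absent without normalization and in the authors' deposited value table, where miR-133b stood at 2565, 7725 and 5114 on the unaffected arrays and at 2860, 2717 and 3380 on the AA arrays.

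miR-133a, the partner of miR-1, was 11.70, 13.42 and 12.29 on the unaffected arrays and 11.70, 11.47 and 11.98 on the AA arrays. Unaffected replicate 1 and AA replicate 1 had the same normalized value, so the groups overlapped. The means were 11.72 ± 0.26 for AA against 12.47 ± 0.87 for unaffected skin, 1.69-fold lower in AA (log2 difference -0.76, SE 0.47, 95% interval -1.81 to 0.30, limma adjusted p = 0.670; exact permutation p = 0.3). Without unaffected replicate 2, the differences were -0.30 for miR-133a and -0.46 for miR-133b, and without unaffected replicate 1 they were -1.07 and -1.21. They were -2.30 and -2.43 when all probes set the 75th percentile used as the scale and -2.20 and -2.32 with no normalization, settings under which the median over all tested miRNAs was -0.95 and -0.84. Neither passed in limma under any of these.

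miR-206 showed no difference in means that its spread could resolve. It was 8.60, 9.99 and 9.90 on the unaffected arrays and 9.71, 8.33 and 10.35 on the AA arrays. AA held both the highest and the lowest of the 6 arrays. The means were 9.46 ± 1.03 and 9.50 ± 0.78 (log2 difference -0.038, SE 0.58, limma adjusted p = 0.989; exact permutation p = 1), and the 95% interval of -1.32 to 1.24 leaves room for a change of more than 2-fold either way. The difference was -0.47 without unaffected replicate 1, and it turned to 0.54 without AA replicate 2, 0.21 without unaffected replicate 2, 0.16 without unaffected replicate 3 and 0.15 with the GC trend removed. It moved furthest with the 75th percentile of all probes as the scale, at -1.48, and with no normalization, at -1.37, both -0.53 relative to the median of all tested miRNAs and neither past the threshold in limma (adjusted p = 0.149 and 0.287).

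**Figure D2:**
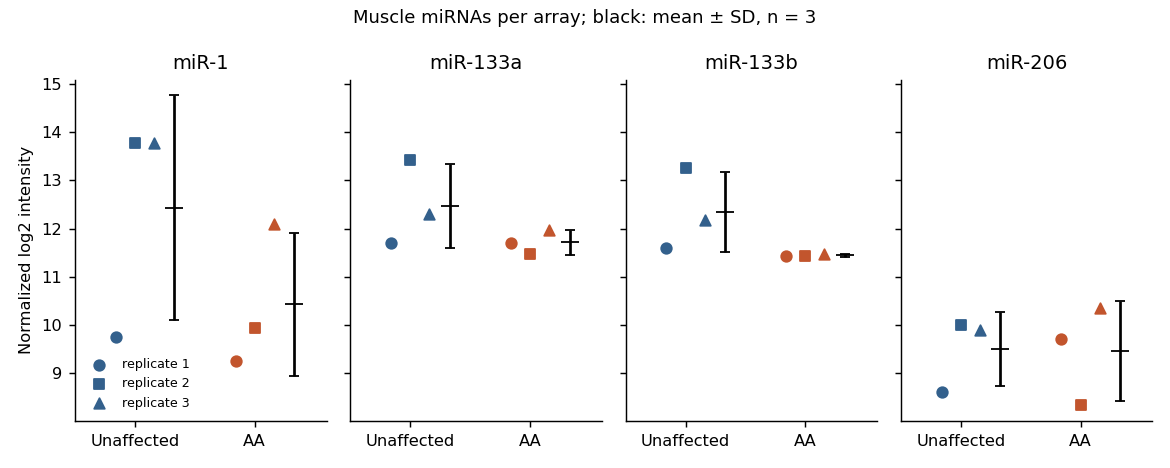
Normalized log2 intensity of the 4 muscle miRNAs in unaffected (blue) and AA (orange) skin, with a marker shape for each replicate number and the mean ± SD (n = 3) in black. miR-1 of unaffected replicate 1 (9.74) falls among the AA arrays, miR-133b of the AA arrays lies between 11.43 and 11.47, and the groups of miR-206 overlap fully.

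**Figure D3:**
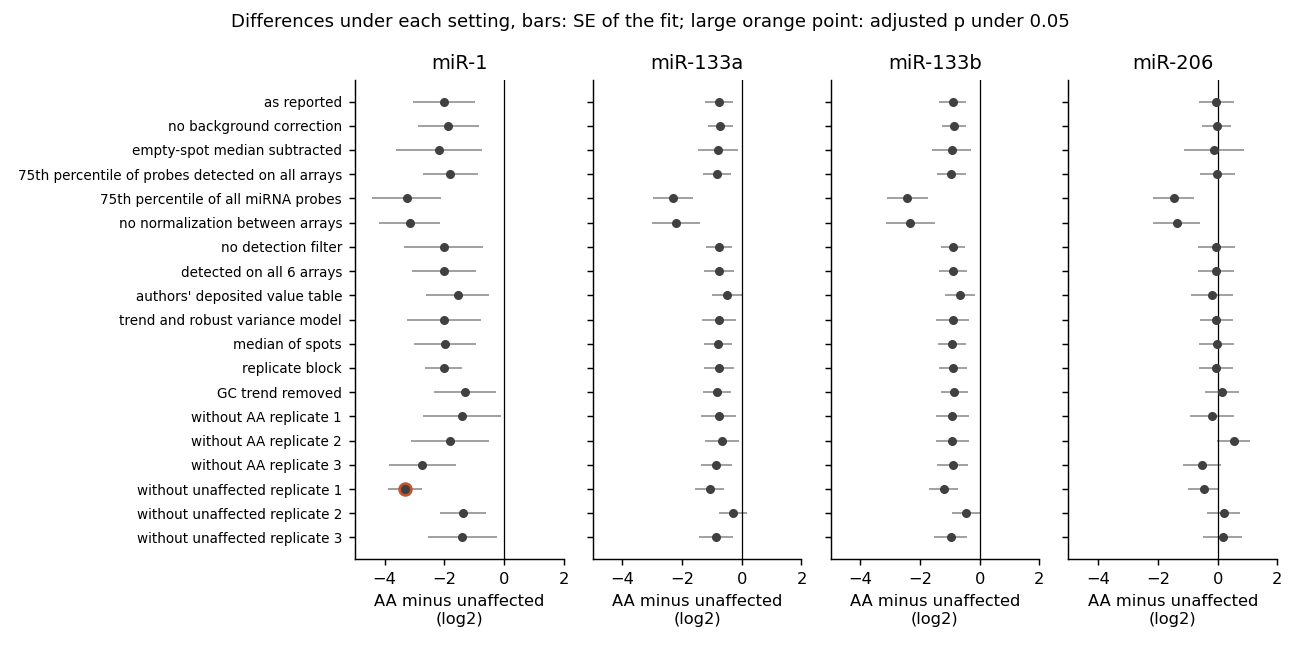
AA minus unaffected log2 difference of each muscle miRNA as reported and under the 18 alternative settings, with the SE of the fit as bars; the large orange point marks an adjusted p under 0.05. miR-1, miR-133a and miR-133b lie below 0 throughout, miR-206 lies on both sides of 0, and the only call is miR-1 without unaffected replicate 1 (-3.31). In that fit the unaffected values of miR-1 were tied.

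After quantile normalization, miR-1 had the widest spread between arrays of the tested miRNAs. Its SD over all 6 arrays was 2.07 on the log2 scale, the highest of the 157 tested, whose median was 0.54. The SD was 1.75 for miR-2861 (named after its values were seen) and 1.71 for miR-451. Within the unaffected group miR-2861 had an SD of 2.16. For miR-1 the SD within that group was 2.33, also the highest (median of all tested 0.44). Within AA its SD of 1.48 was the 4th highest (median 0.46). The unaffected SD rested on replicate 1: without it, the other 2 arrays share the top value and the SD is 0. The AA SD rested on replicate 3, without which it was 0.52. The SD over the remaining 5 arrays was the highest of all tested with each array left out in turn, at 1.93 to 2.21, an alternative chosen after seeing the data. The SD over 6 arrays was 0.82 for miR-206, 0.72 for miR-133b and 0.71 for miR-133a, above 84.0%, 76.3% and 74.4% of the other tested miRNAs. The rank of miR-1 depended on the processing: over 8 other settings it ran from the 1st to the 25th place, the latter after plain subtraction of the empty-spot median, and it was the 5th in the authors' deposited value table.

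miR-133b was the opposite case within AA. Its SD of 0.022 over the AA arrays was the smallest of the 157, and 0.021 to 0.78 over the 8 other settings. Scaling by the 75th percentile of the probes detected everywhere gave 0.052, and it was 0.16 in the authors' deposited value table, while it was 0.53 when the 75th percentile was taken over all probes and 0.78 with no scaling between arrays. The equal values of AA replicates 1 and 2 come from equal ranks under quantile normalization. In unaffected skin its SD of 0.84 was larger than that of 84.0% of the other miRNAs. The median spot-to-spot SD was 0.19 over all tested miRNAs. For the members it was 0.13 to 0.20, and the pooled SD between arrays of a group was 9.61 times that for miR-1 and 4.69 to 5.40 times for the other 3. Repeat spots share an array and an RNA sample, so their spread does not measure variation between arrays or RNA samples.

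**Figure D4:**
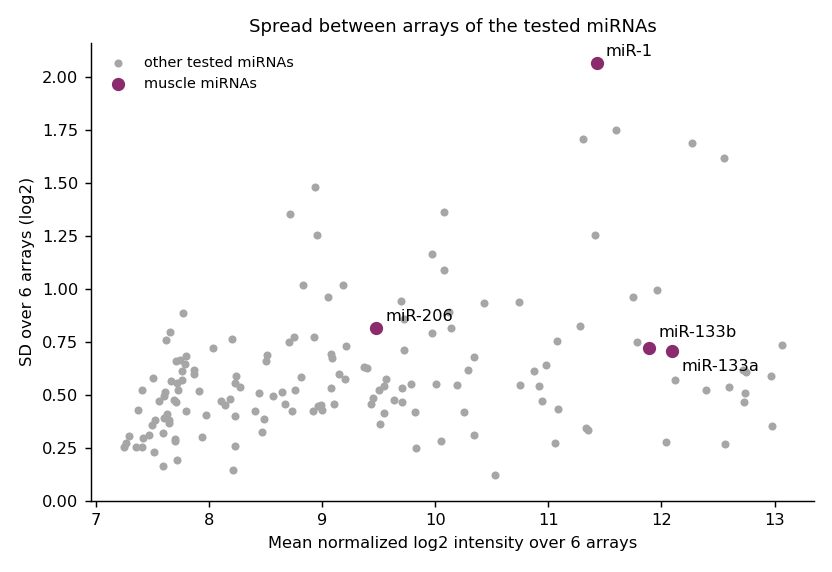
SD over the 6 arrays (log2) against the mean normalized log2 intensity for the 157 tested miRNAs, with the 4 muscle miRNAs in purple. miR-1 has the highest SD (2.07), and the other 3 lie between 0.71 and 0.82.

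Differences between 2 probes on the same array are not moved by multiplying the background-corrected values of the array by a constant. Their change across arrays shows whether members changed unequally. They do depend on the background correction: the change of miR-133a minus miR-206 was -0.83 as reported and -1.12 with none. Quantile normalization does move them, so they were taken from background-corrected log2 values before it. The value itself carries no rank of abundance, since probes differ in affinity. miR-133a minus miR-133b, from the near-identical probes, was nearly constant, at 0.13, 0.021 and 0.087 on the unaffected arrays and 0.18, 0.084 and 0.35 on the AA arrays, a 1.26-fold range.

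miR-1 minus its cluster partner miR-133a was -1.85, 0.28 and 0.75 on the unaffected arrays and -2.48, -1.30 and 0.074 on the AA arrays. The range was 9.38-fold, so the signals of these co-transcribed miRNAs did not move in step across arrays. Unaffected replicate 1 again lay among the AA arrays, and AA replicate 3 lay near the bright unaffected arrays. The means were -1.23 ± 1.28 for AA against -0.27 ± 1.39 for unaffected skin (SD, n = 3 each; exact permutation p = 0.4). The change between groups of -0.96 was -1.75 without unaffected replicate 1, -1.61 without AA replicate 3, -0.34 without AA replicate 1 and -0.45 without unaffected replicate 3. The targets also differ in GC content (27.3% for miR-1, 54.5% for miR-133a), and these pair differences were not corrected for the GC trend. With that trend removed from the normalized values, AA minus unaffected was -1.30 for miR-1 and -0.83 for miR-133a.

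miR-1 minus miR-206, which share a seed, was 1.34, 3.43 and 3.38 on the unaffected arrays and -0.27, 1.52 and 1.54 on the AA arrays. The means were 0.93 ± 1.04 for AA against 2.72 ± 1.19 for unaffected skin (n = 3 each; exact permutation p = 0.3). miR-133b minus its cluster partner miR-206 was 3.06, 3.13 and 2.55 on the unaffected arrays and 2.03, 2.73 and 1.12 on the AA arrays, with means of 2.91 ± 0.32 and 1.96 ± 0.81 (n = 3 each; exact permutation p = 0.2). That change of -0.95 was -0.53 without AA replicate 3 and -0.47 in the authors' deposited value table. The AA arrays were lower on average in that difference, with an overlap between AA replicate 2 and unaffected replicate 3. Over the 6 pairs compared, the Benjamini-Hochberg adjusted permutation p ran from 0.45 to 0.6, in a design whose smallest unadjusted p is 0.1, so unequal change between the members in AA was not established.

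**Figure D5:**
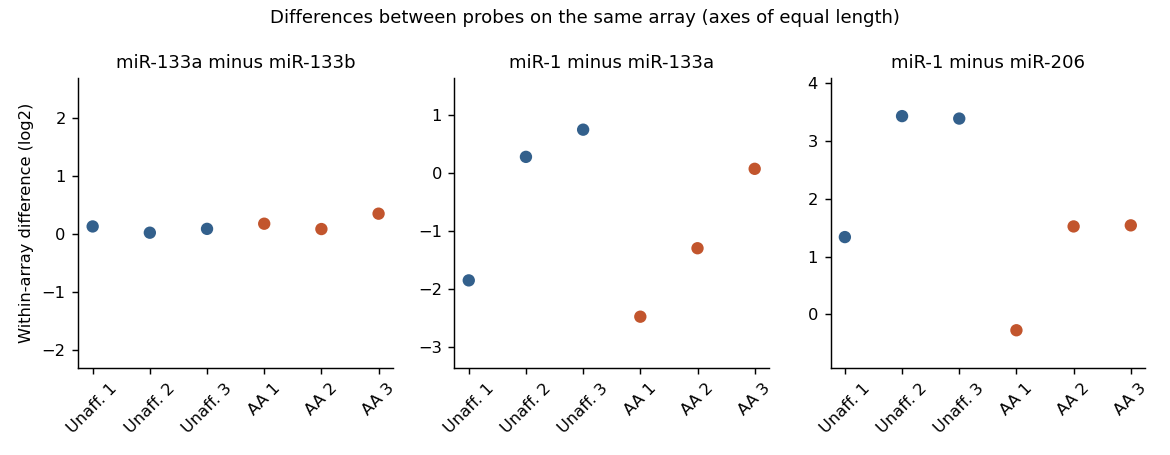
Within-array log2 differences between probes for 3 pairs of muscle miRNAs, with unaffected arrays in blue and AA arrays in orange, on axes of equal length. The miR-133a and miR-133b probes stay within 0.021 to 0.35, while miR-1 against miR-133a runs from -2.48 to 0.75 and miR-1 against miR-206 from -0.27 to 3.43.

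Across the 6 arrays, normalized miR-133a and miR-133b correlated at r = 0.97. miR-1 correlated at 0.81 with miR-133a, 0.77 with miR-133b and 0.65 with miR-206, and miR-206 at 0.57 with miR-133a and 0.38 with miR-133b. These values describe 6 points that share a normalization and include both groups. Among the 153 other tested miRNAs, the pattern of miR-1 was most like that of miR-16, a miRNA that represses Bcl2 (r = 0.92), the myeloid miR-223 (0.83) and the collagen regulator miR-29a (0.81). The pattern of miR-206 was most like that of the smooth muscle miRNA miR-143 and of miR-26a (both 0.97), then of miR-185 (0.82). The mean of the miR-133 probes was most like the endothelial miR-126-3p (0.90), miR-128, which is abundant in brain (0.86), and miR-29a (0.84). These are the highest of 153 correlations over 6 points, picked for their size, and were not tested. Some rest on dim values. On AA replicate 2, miR-223, miR-185 and miR-128 (7.15, 7.41 and 7.01) stood below miR-155 (7.82), which was not detected there.

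Of 6 further probes for striated muscle miRNAs, chosen by name, 1 was tested and 0 passed in either direction. miR-208a and miR-208b, which are encoded in heart and slow myosin heavy chain genes, miR-499, from a related myosin gene, and miR-1-2-as, antisense to a miR-1 hairpin, were detected on 0 of 6 arrays. Their mean raw signals did not exceed the 95th percentile of the empty spots on any array. miR-133a*, the passenger strand of miR-133a, exceeded that percentile on unaffected replicates 2 and 3 only, at raw intensities of 339 and 250, which are the arrays on which miR-133a was brightest. It stood at 148 on unaffected replicate 1 and at 205, 362 and 540 on the AA arrays, below the percentile each time. miR-486, a miRNA of both muscle and red cells, was 11.54, 9.70 and 9.40 on the unaffected arrays and 9.74, 8.26 and 11.85 on the AA arrays (log2 difference -0.26, SE 0.84, limma adjusted p = 0.961). It was highest of the unaffected arrays on replicate 1, where each of the 4 muscle miRNAs was lowest of the unaffected arrays.

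Markers of other tissue in the skin were compared as the sum of their normalized linear intensities. The skeletal muscle sum (4 of 4 tested) was 6882 to 12528 in AA and 7679 to 35766 in unaffected skin. It holds both near-identical miR-133 probes, and miR-1 at the top of the common distribution (13.78) on unaffected replicates 2 and 3. The smooth muscle sum (miR-143 and miR-145, 2 of 2 tested) was 2410 to 3755 and 3548 to 4467, and the endothelial miR-126-3p (1 of 1) was 419 to 776 and 517 to 2420. Both overlapped between groups and had their highest value on unaffected replicate 2, as did miR-133a and miR-133b. The members of the smooth muscle sum differed in this. Normalized miR-143 was highest on unaffected replicate 2 (11.06), but miR-145 was highest on unaffected replicate 1 (11.43). The keratinocyte sum (miR-203 and miR-205, 2 of 2) was 9968 to 21726 in AA and 14015 to 20670 in unaffected skin. The red cell sum (2 of 3, miR-144 not detected) was 575 to 12979 and 3656 to 5796. Its lowest value was on AA replicate 2, where miR-451 was not detected (raw 589, against an empty-spot 95th percentile of 599). There miR-486 was 1.31 times the empty-spot median, so that value is near the empty-spot level. The lymphocyte list rested on miR-150 (1 of 3, miR-142-3p and miR-155 not reaching the detection minimum), at 551 to 924 and 325 to 560. The part of tissue make-up in the differences of the muscle miRNAs was not tested.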

How the data were processed

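The authors deposited, per the file headers, the mean pixel intensity of every spot, unprocessed, for each of 6 single-colour Cy3 arrays, with 3968 spots each. Per the labels' protocols, RNA of whole dorsal skin was tailed with poly(A), tagged and hybridised to µParaflo chips (biotin-labelled cRNA is named there too). No source used here gives the image software. The authors' deposited value table holds a processed linear intensity for 755 probes; over 88 probes, its log2 values correlated per array at 0.989 to 1.00 with empty-spot-subtracted scanner values and at 0.956 to 0.999 with unsubtracted ones. The median ratio to the former was 0.400 to 3.72, and column medians were 34.2 to 44.3. Its values are linear and rescaled per array; the scaling method and the background correction stay unknown, and it served as an alternative.

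Raw intensities were corrected with normexp (offset 50, all spots) in limma 3.58.1 (R 4.3.3), log2 values of 5 spots were averaged, and arrays were quantile-normalized over 707 probes. Probes above the 95th percentile of the 145 empty and background spots on at least 3 arrays were tested by lmFit and eBayes (two-sided, Benjamini-Hochberg over 157 miRNAs). Within-array differences used background-corrected values without normalization and exact permutation tests.

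The members, marker lists and tests were chosen with earlier results of these data known. Named miRNAs are the members, listed striated muscle and marker probes, and the 3 most correlated non-members of each target; others are named after their values were seen, where a small count called for names. Alternatives changed background, scaling, filter, value source, variance model, spot summary, block, GC trend and each array in turn. The files used here name no slide or scan date. The number of arrays limits the precision.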

Additional observations from a re-analysis of the deposited data

How the results depend on the processing

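Under the 18 alternatives, miR-1, miR-133a and miR-133b had lower means in AA throughout, and miR-206 in 14. The share of all tested miRNAs with lower means in AA ran from 29.3% to 91.7% over these settings. Relative to the median of all tested miRNAs, miR-1, miR-133a and miR-133b were lower in all 18 and miR-206 in 9. With single arrays left out, the count of miRNAs passing ran from 0 to 5 (5 without unaffected replicate 1, namely miR-1, miR-26b, miR-30b, miR-1937a and miR-1937b, and 2 without unaffected replicate 2, namely miR-705 and miR-2861; all but miR-1 named after their values were seen), miR-1 from -3.31 to -1.37, miR-133a from -1.07 to -0.30, miR-133b from -1.21 to -0.46 and miR-206 from -0.53 to 0.54. The higher miR-206 means in AA were 0.15 with the GC trend removed, 0.54 without AA replicate 2, 0.21 without unaffected replicate 2 and 0.16 without unaffected replicate 3; the cause was not tested. Adjusted p-values (limma, two-sided) over the alternatives ran from 7.49e-05 to 0.949 for miR-1 and from 0.0708 to 0.949 for miR-133a and for miR-133b. The lowest for miR-1 came from the fit without unaffected replicate 1, where the unaffected miR-1 values were tied. For miR-133a and miR-133b the lowest came with the 75th percentile of all probes as the scale. The median over all tested miRNAs became -0.95 when all probes set the 75th percentile for scaling and -0.84 with no normalization, where miR-1 was -3.26 and -3.16. It became 0.53 with scaling to the probes detected on all arrays, where miR-1 was -1.79. These 3 settings differ by a constant per array, so differences relative to the median are the same in all 3 by construction (-2.32 for miR-1). The 6 within-array differences kept their direction with other background corrections, the median of spots, the authors' deposited value table and each array left out, the last chosen after seeing the data, though their sizes moved: miR-1 minus miR-133a ran from -1.75 to -0.34 and miR-133a minus miR-206 from -1.15 to -0.33. With the replicate number as a block, 0 miRNAs passed and miR-1 was -2.01 (SE 0.62, limma adjusted p = 0.633). The deviations of same-numbered arrays from their group means correlated at 0.14, -0.10 and -0.12. No AA array correlated best with the unaffected array of its own number, and of the unaffected arrays only replicate 1 did with AA. The labels tie no numbers together. Each group has 3 arrays, and miR-206 was near the empty-spot level on unaffected replicate 1 and AA replicate 2.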
